A study of Mus musculus with 12 samples.

Results

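Trim68, Trim34a, Trim12c, Trim30a, Cyfip2, Iqcg and Vangl2 are 7 mouse genes that were chosen by their values in these same arrays, as candidates for a level that switches between individual mice of an outbred stock rather than between treatments. Every probe set annotated to one of these symbols alone was taken, which gave 14 of the 45101 array features and 7 of the 18193 genes with a probe set of their own. Since the 12 arrays chose the genes, the levels, gaps and differences below are a description of those arrays. In these data 5 of the 7 genes had both a high and a low class of mice inside at least 1 treatment group, Trim30a had no classes, and Vangl2 separated a whole group instead. The low mice of Trim68 and Trim12c were all verapamil males, and those of Iqcg were all vehicle females. For Trim68 and Trim12c every verapamil male also lay below every vehicle male.

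The mice were of the ICR stock, which is outbred, so that littermates and cage mates are not genetically identical as inbred mice are. Left ventricular free wall was taken from females and males aged 12 to 14 weeks that carried a pump under the skin for 24 h. The pump delivered verapamil, a blocker of the L-type calcium channel of heart muscle, at 3.6 mg per kg per day, or only the vehicle, 0.02% ascorbic acid. Vehicle and verapamil were each given to 3 females and 3 males, which makes 4 groups, and each of the 12 mice had 1 Affymetrix whole-genome mouse array. Replicate numbers are used here to name a mouse, and female vehicle 1 is the array whose label carries no number. The labels do not say whether mice of the same number were processed together. All mice were anesthetized for implantation of the pump and again before the heart was removed. No genotype was measured, and an inherited difference between mice was not tested.

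The TRIM proteins are a large family that pairs a RING finger, which attaches ubiquitin to other proteins, with a B-box and a coiled coil. Many act in antiviral defence: primate TRIM5 recognises retroviral capsids, and the mouse genes around Trim5, Trim12, Trim30 and Trim34 form a cluster of duplicated copies on chromosome 7 whose number differs between rodent lineages. Trim30a is induced by interferon and restrains signalling from Toll-like receptors, and Trim68 lies on the same chromosome near the cluster. Cyfip2 is a subunit of the WAVE complex, which couples the small GTPase Rac to actin branching. Iqcg is part of the regulatory complex that links the outer doublets of motile cilia and sperm tails. Vangl2 is a membrane protein of planar cell polarity, which orients cells within a sheet and is needed for outflow tract formation in the embryonic heart.

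From RefSeq (assembly GRCm38.p6), 11 Trim genes along this part of chromosome 7 were taken by symbol. Their order was Trim68, Trim6, Trim34a, Trim5, Trim12a, Trim34b, Trim12c, Trim30b, Trim30c, Trim30a and Trim30d. Trim21, near Trim68, was not among them. Trim68 is separated from the other 10 by olfactory receptor and globin genes. Of the 11, 8 had a probe set of their own and Trim34b, Trim30b and Trim30c did not. The 250 bases before the start of 4 of these genes are printed below, because in these 4 the same mice stood at one end of the range. Capitals mark the core of the interferon-stimulated response element, GAAANNGAAA or its reverse complement, read on both strands; sequences and coordinates are from RefSeq (GRCm38.p6) and are given 5′ to 3′ on the strand of the gene.
Trim34a, chr7:104244207-104244456, plus strand: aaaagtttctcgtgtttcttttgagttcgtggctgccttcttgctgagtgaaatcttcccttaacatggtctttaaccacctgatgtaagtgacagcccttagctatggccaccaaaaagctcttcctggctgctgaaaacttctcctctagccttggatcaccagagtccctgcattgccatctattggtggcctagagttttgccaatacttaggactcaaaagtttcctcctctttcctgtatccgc
Trim5, chr7:104288107-104288356, minus strand: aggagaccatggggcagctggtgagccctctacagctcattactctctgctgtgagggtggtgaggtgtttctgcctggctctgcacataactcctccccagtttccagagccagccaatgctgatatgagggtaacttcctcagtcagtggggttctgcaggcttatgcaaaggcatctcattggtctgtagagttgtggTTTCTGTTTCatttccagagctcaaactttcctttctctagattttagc
Trim12c, chr7:104353350-104353599, minus strand: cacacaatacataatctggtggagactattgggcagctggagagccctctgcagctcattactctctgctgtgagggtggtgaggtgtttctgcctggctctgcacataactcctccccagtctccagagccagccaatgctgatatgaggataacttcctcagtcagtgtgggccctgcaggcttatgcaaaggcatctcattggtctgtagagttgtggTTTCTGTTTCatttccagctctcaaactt
Trim30d, chr7:104507850-104508099, minus strand: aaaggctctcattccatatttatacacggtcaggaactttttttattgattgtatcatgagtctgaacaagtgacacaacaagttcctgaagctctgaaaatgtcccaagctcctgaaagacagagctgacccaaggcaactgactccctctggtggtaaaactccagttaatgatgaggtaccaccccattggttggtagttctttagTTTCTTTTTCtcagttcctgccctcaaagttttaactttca
The core stood 49 bases before the start of Trim5, 29 before that of Trim12c, 36 before that of Trim30a and 41 before that of Trim30d. It was not found in this window of Trim68, Trim6, Trim34a, Trim12a, Trim34b, Trim30b, Trim30c, Cyfip2, Iqcg or Vangl2, nor before a second start that RefSeq lists for Trim30a. The Trim12a window ended with a stretch that the windows of Trim5 and Trim12c hold shortly before the core. Its absence from Trim12a therefore depends on the listed start. Among 32851 promoters of the same length the core was present in 978, or 2.98%. The windows of Trim5 and Trim12c were identical at 81.1% of 270 aligned positions and those of Trim30a and Trim30d at 89.0% of 255, while Trim34a matched Trim12c at 49.3%. These windows lie before the genes and do not show how alike the transcripts are. Probe sequences were not compared, so that signals of Trim5, Trim12c, Trim34a, Trim30a and Trim30d may mix closely related transcripts. Since only probe sets annotated to a single symbol were taken, 3 that carry 2 symbols (Trim34b with Trim34a, or Trim30d with Trim30a) were not counted among the 14.

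A gene was described as having 2 classes of mice where the widest gap between neighbouring values, after sorting the 12 mice by log2(signal + 7), was at least 1 log2 unit (2-fold on that scale) with at least 2 mice on each side. Of the 14 probe sets, 9 were bright enough to be tested, that is, above the median of all probe sets. Classes were present in 7 of these 9, and in 6 of the 9 both classes occurred inside at least 1 group. Over all 22518 tested probe sets, 215 (0.955%) had 2 classes and 206 (0.915%) had both classes inside a group. The genes were chosen for this pattern, so nothing is read from the comparison with this background. By the rule's threshold, the members just inside were the 2 probe sets of Trim34a, with gaps of 1.20 and 1.24, and just outside were a dim Vangl2 probe set with 0.80 and a Trim30a probe set with 0.45. A dim Cyfip2 probe set had a gap of 1.35 but only 1 mouse above it.

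**Figure D1:**
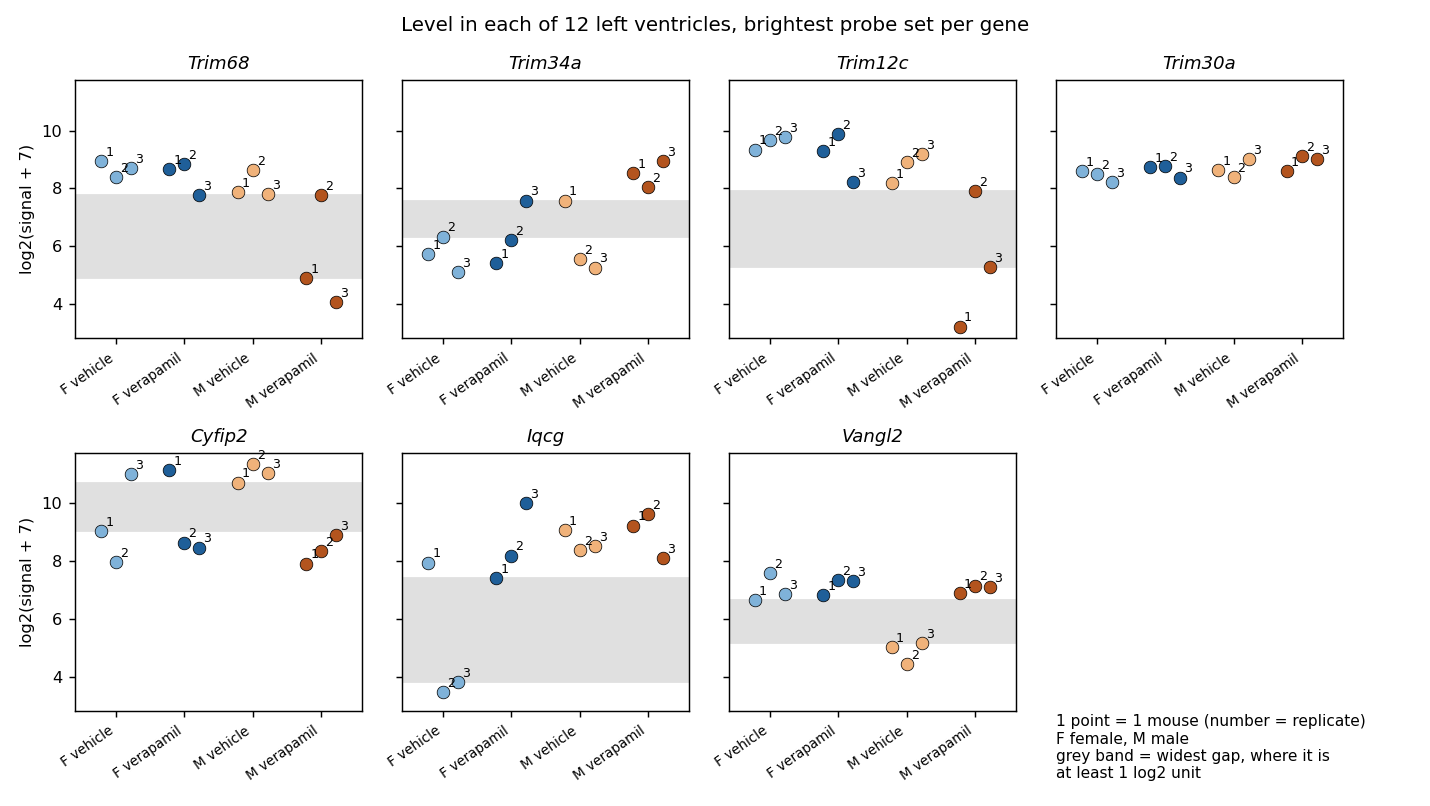
Level of the brightest probe set of each of the 7 genes as log2(signal + 7) on the y axis, in 3 mice of each of 4 groups on the x axis; each point is 1 mouse and the grey band is the widest gap where it is at least 1 log2 unit. Low mice of Trim68 and Trim12c are male verapamil 1 and 3, low mice of Iqcg are female vehicle 2 and 3, Cyfip2 has 5 high mice in 3 groups, and the 3 male vehicle mice are the low ones of Vangl2.

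Trim68, an E3 ubiquitin ligase, was bright in 10 mice and nearly dark in 2. In females its level was 8.94, 8.40 and 8.70 with vehicle and 8.66, 8.85 and 7.78 with verapamil (log2(signal + 7), replicates 1 to 3). In males it was 7.88, 8.63 and 7.82 with vehicle and 4.90, 7.78 and 4.07 with verapamil. Male verapamil 1 and 3 lay apart from every other mouse, with deposited signals of 22.8 and 9.84, while male verapamil 2 stood beside vehicle males and beside female verapamil 3. The gap between the classes was 2.88 log2 units, or 7.36-fold, against a second widest gap of 0.83. Within male verapamil the 3 mice spanned 3.71 log2 units.

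Trim12c, a Trim5-like gene of the cluster, split the mice in the same way. Its levels were 9.34, 9.66 and 9.78 in vehicle females, 9.30, 9.86 and 8.21 in verapamil females, 8.20, 8.91 and 9.17 in vehicle males and 3.23, 7.90 and 5.29 in verapamil males. The low mice were again male verapamil 1 and 3, and all 12 mice were on the same side as for Trim68. The signal was 2.37 in male verapamil 1 and 32.1 in male verapamil 3, against 231.3 in male verapamil 2 and up to 923.9 in female verapamil 2. The gap was 2.61 log2 units (6.09-fold). A second gap of 2.06 separated the low mice from each other, so that Trim12c did not fall into 2 tight classes. On a pseudocount of 1 in place of 7 the widest gap was 3.30 and left male verapamil 1 alone below it. The other Trim12c probe set, 1445271_at, was dim and gave 5.51 to 6.65 with a widest gap of 0.35, and there male verapamil 1 was at 6.18.

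Trim34a had classes in both of its probe sets, and in male verapamil mice these moved in opposite directions. The brighter one, 1424857_a_at, gave 5.72, 6.34 and 5.10 in vehicle females, 5.43, 6.21 and 7.58 in verapamil females, 7.58, 5.56 and 5.26 in vehicle males and 8.52, 8.06 and 8.95 in verapamil males. Its 5 high mice were female verapamil 3, male vehicle 1 and all 3 verapamil males, with 1.24 log2 units between them and the next mouse. The dimmer one, 1426093_at, gave 6.38, 6.10 and 6.85 in vehicle females and 6.35, 6.001 and 6.71 in verapamil females. It gave 6.35, 5.47 and 5.64 in vehicle males and 3.51, 3.66 and 4.85 in verapamil males. Here the verapamil males were the 3 lowest mice and male verapamil 1 and 2 made up the low class, so that the same animals were highest by one probe set of Trim34a and lowest by the other. A probe set shared by Trim34b and Trim34a, 1421550_a_at, ordered the mice like the brighter one: the same 5 were highest, at 6.87 to 8.19, against 4.14 to 6.80 in the others. The other shared probe set, 1426092_a_at, did not: 2 of these mice were among its 5 highest and 1 among its 5 lowest, and they spanned 5.04 to 6.16 against 4.66 to 6.06 in the others.

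Trim30a, the best known interferon-induced gene of the group, showed no classes. Its brighter probe set, 1451860_a_at, gave 8.59, 8.501 and 8.21 in vehicle females, 8.73, 8.76 and 8.38 in verapamil females, 8.64, 8.38 and 9.0 in vehicle males and 8.59, 9.12 and 9.01 in verapamil males. All 12 mice lay within 0.91 log2 units (1.88-fold) and no group stood apart from another of the same sex. In the other, 1417961_a_at, vehicle females were at 7.46, 7.89 and 7.92 and verapamil females at 8.63, 8.61 and 8.16, without overlap, while males spanned 7.82 to 8.90 and overlapped. Its widest gap was 0.45.

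Beside the members, 2 of the 7 other probe sets of the 11 Trim genes, 1 of Trim5 and 1 of Trim30d, had the same 5 highest mice as the brighter Trim34a probe set. Trim5, whose primate counterpart restricts retroviruses, had a single dim probe set with 5.64, 3.41 and 5.14 in vehicle females and 3.77, 4.93 and 6.65 in verapamil females. Its males were at 6.91, 3.40 and 4.73 with vehicle and 7.79, 7.08 and 7.76 with verapamil. The 5 high mice were female verapamil 3, male vehicle 1 and the 3 verapamil males. The brighter Trim30d probe set, also dim, had the same 5 mice highest, at 6.27 to 7.40 against 3.25 to 5.29 in the other 7, with a gap of 0.98 just under the threshold. The remaining 5 probe sets, both of Trim6, both of Trim12a and the dimmer one of Trim30d, all dim, had 1 to 3 of these mice among their 5 highest. For Trim12c the order ran the other way: those 5 mice were its 5 lowest, at 3.23 to 8.21 against 8.91 to 9.86 in the other 7. For Trim68, 4 of them were among the 5 lowest. Trim30a, between Trim12c and Trim30d on the chromosome, had only 1 of the 5 mice among its 5 lowest and 2 among its 5 highest in each of its probe sets. All of these values come from the same 12 arrays, and the 5 mice include all 3 verapamil males, so that a difference between mice and a difference between groups cannot be told apart there; in female verapamil and male vehicle the high mouse was 1 of 3.

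**Figure D2:**
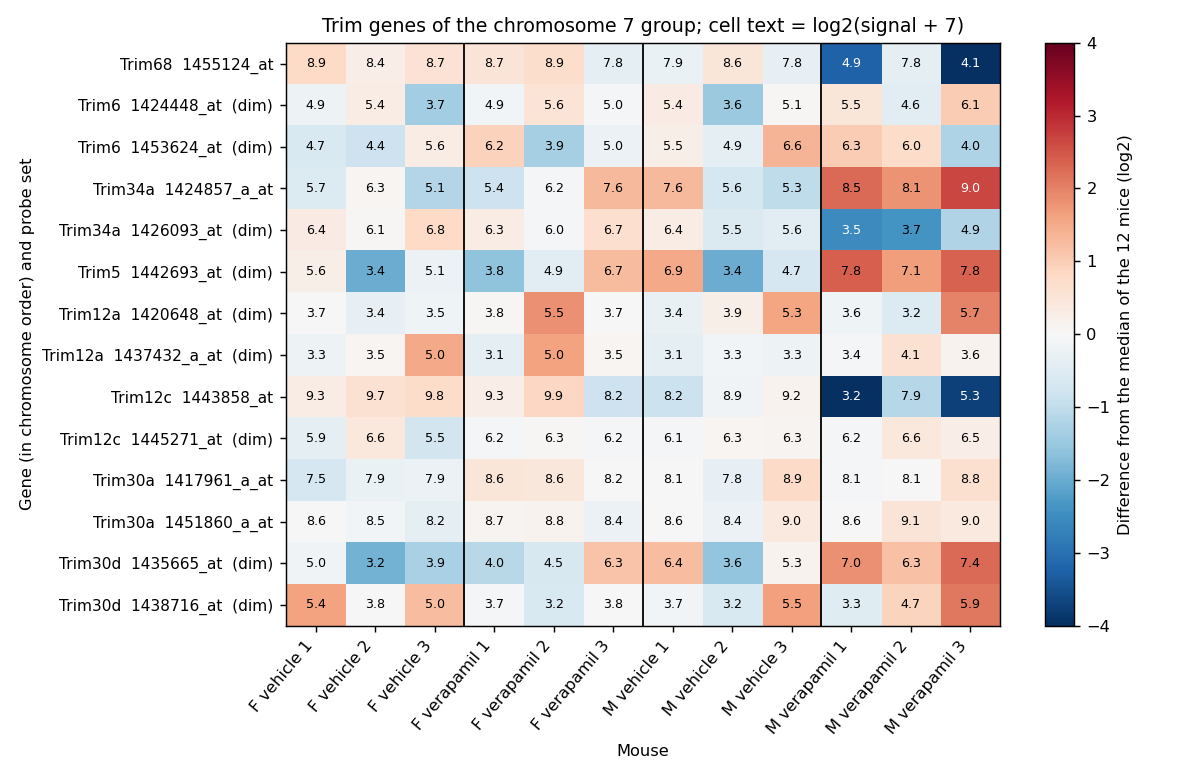
Level of the 14 probe sets of 8 Trim genes in chromosome order (rows) in each of 12 mice (columns, black lines between groups); numbers in cells are log2(signal + 7) and colours the difference from the median of the 12 mice. Red cells of Trim34a 1424857_a_at, Trim5 and Trim30d 1435665_at fall on the same 5 mice, while Trim68 and Trim12c are dark blue in male verapamil 1 and 3.

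Cyfip2 was high or low in both sexes, and its 2 tested probe sets gave the same split. Trim30a, without classes, was the only other member with 2 tested probe sets, so no other member could show this. Probe set 1428347_at gave 9.04, 7.98 and 11.02 in vehicle females, 11.15, 8.65 and 8.47 in verapamil females, 10.71, 11.35 and 11.04 in vehicle males and 7.92, 8.34 and 8.89 in verapamil males. The high mice were female vehicle 3, female verapamil 1 and the 3 vehicle males, and the gap to the next mouse was 1.67 log2 units (3.18-fold). Probe set 1449273_at gave 7.33, 5.99 and 9.57 in vehicle females, 9.46, 7.39 and 6.88 in verapamil females, 9.48, 9.81 and 10.24 in vehicle males and 7.11, 7.13 and 7.05 in verapamil males. It put all 12 mice on the same side, with a gap of 2.07 (4.19-fold). Among the 11 tested genes with 2 classes in their brightest probe set and a further tested probe set, 1 (9.09%) had another probe set with the same split, and this was Cyfip2. The remaining, dim probe set, 1442167_at, gave 4.02 to 7.47 and set only male vehicle 3 apart.

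In females 1 of 3 mice was high for Cyfip2 with vehicle and 1 of 3 with verapamil. In males all 3 vehicle mice were high and all 3 verapamil mice low, so that in males class and treatment cannot be told apart. The verapamil minus vehicle difference was -2.65 (SE 0.72) and -2.75 (SE 0.75) log2 units in males by the 2 tested probe sets, and 0.08 (SE 0.72) and 0.28 (SE 0.75) in females. The female minus male difference of these effects was 2.73 (SE 1.02) and 3.02 (SE 1.06) with limma adjusted p of 1.00 for both, so that the sexes were not shown to differ.

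**Figure D3:**
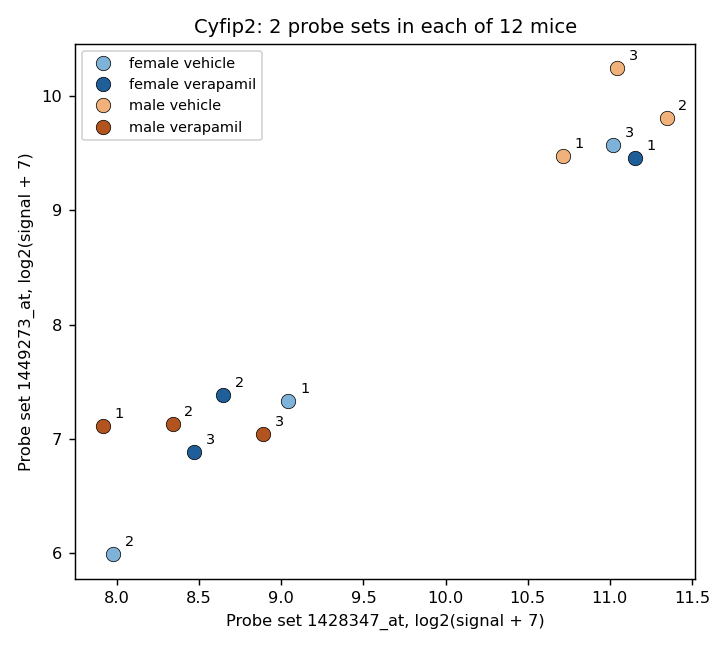
Cyfip2 level by probe set 1428347_at (x axis) and 1449273_at (y axis), both as log2(signal + 7), in 12 mice coloured by group and numbered by replicate. A cloud of 7 low and a cloud of 5 high mice are separated by 1.67 on the x axis and 2.07 on the y axis, and females of both treatments are in both clouds.

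Iqcg had the widest gap of the 7 genes. Its only probe set gave 7.95, 3.49 and 3.82 in vehicle females, 7.41, 8.20 and 10.003 in verapamil females, 9.07, 8.38 and 8.53 in vehicle males and 9.23, 9.64 and 8.10 in verapamil males. Female vehicle 2 and 3 were low, with signals of 4.26 and 7.08, while female vehicle 1 had 240.4 and stood among the other groups. The gap was 3.59 log2 units (12.1-fold), and the 12 mice spanned 6.51 log2 units or 91.1-fold on the scale of log2(signal + 7). Signals as low as these lie far below the array medians of 81.67 to 109.7, so that the pseudocount sets much of these folds: the gap was 4.34 with a pseudocount of 1 and 2.55 with 25. How the authors corrected for background, which also bears on the low values of Trim68 and Trim12c, is not known here. Vehicle and verapamil females overlapped at female vehicle 1, and the male groups overlapped throughout.

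Vangl2 switched between groups, not between mice within a group. Its brightest probe set, 1419218_at, gave 6.65, 7.58 and 6.87 in vehicle females, 6.84, 7.35 and 7.31 in verapamil females, 5.04, 4.45 and 5.17 in vehicle males and 6.91, 7.16 and 7.11 in verapamil males. The 3 vehicle males were the 3 lowest mice, with a gap of 1.48 log2 units to the next, and no group held both classes. Only 8.14% of its sum of squares lay within groups, against a median of 80.6% over all tested probe sets. The standard deviation within groups was 0.35 log2 units, near the middle of all tested probe sets, of which 42.1% had a larger one. Its other probe sets, 1436118_at and 1455592_at, were dim, at 5.61 to 6.86 and 4.31 to 6.58, and had no classes; there the male difference between treatments was -0.29 and -0.08 log2 units, against 2.17 by the brightest.

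Among the tested probe sets of the 7 genes, the 6 with both classes inside a group also had the largest spread within groups. The standard deviation within groups, pooled over the 4 groups, was 1.48 for Iqcg, 1.27 for Trim12c, 1.15 and 1.11 for Cyfip2, 1.05 for Trim68 and 0.91 for Trim34a, against a median of 0.32 and a 90th percentile of 0.61 over tested probe sets. A larger value was found in 0.102% of tested probe sets for Iqcg, 0.342% for Trim12c, 1.12% for Trim68 and 2.22% for Trim34a. Trim30a was at 0.26 by its brighter probe set, with 67.0% of probe sets above it. Dim probe sets did not keep this order: one of Vangl2 without classes had 0.72 and the dimmer one of Trim34a 0.51. A single mouse held much of the spread of 3 genes, which fell to 0.47 for Trim68 and 0.77 for Trim12c without male verapamil 2 and to 0.85 for Iqcg without female vehicle 1. By width of gap, among the 168 genes with 2 classes in any tested probe set, after leaving out probe sets that split the mice exactly by sex, Iqcg ranked 2, Trim68 5, Trim12c 9, Cyfip2 12, Vangl2 44 and Trim34a 77. The gap and the spread both come from the values that chose the genes.

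**Figure D4:**
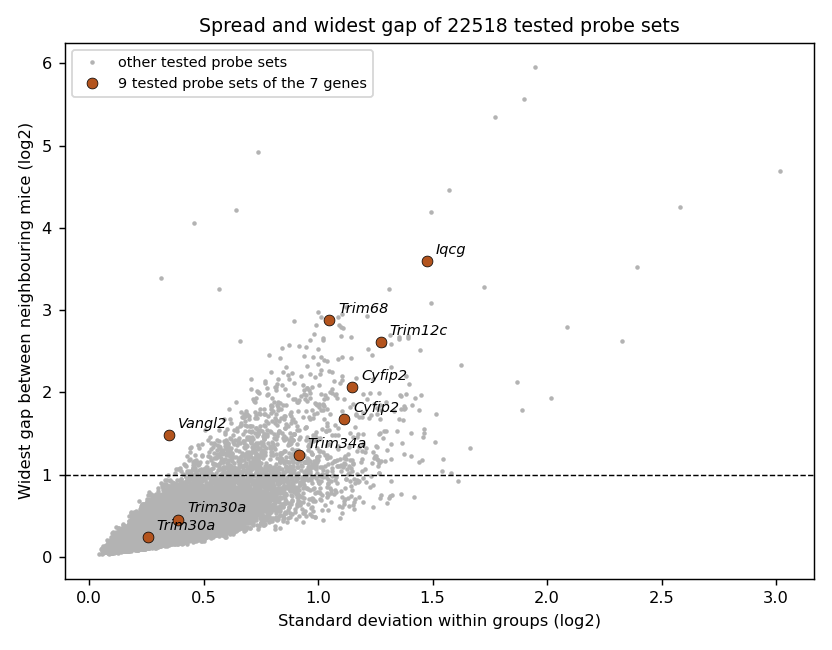
Standard deviation within groups (x axis, log2 units) and widest gap between neighbouring mice (y axis, log2 units) of 22518 tested probe sets; the dashed line is the threshold of 1 and orange points are the 9 tested probe sets of the 7 genes. Iqcg, Trim68, Trim12c and both Cyfip2 probe sets lie high on both axes, Vangl2 has a gap of 1.48 at a spread of 0.35, and the Trim30a probe sets lie in the main cloud.

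None of the 9 tested member probe sets differed between treatments in limma's test with Benjamini-Hochberg adjustment over all 22518 probe sets. In that test 0 probe sets (0.0%) were called for verapamil against vehicle in females, in males, averaged over the sexes or between the sexes, while 510, 612, 716 and 443 had an unadjusted p under 0.05. Between males and females 17 (0.0755%) were called and none of them was a member probe set. Among members, the male difference was -3.29 (SE 0.82) log2 units for Trim12c, -2.52 (SE 0.69) for Trim68, 2.38 (SE 0.63) for Trim34a and 2.17 (SE 0.34) for Vangl2, with a limma adjusted p of 0.49 for Vangl2 (0.095 to 1.00 over 18 alternatives) and 1.00 for the other 3. The female difference of Iqcg was 3.45 (SE 0.95), adjusted p 1.00. In males 4 of the 9 probe sets had all verapamil mice below all vehicle mice, where 4.09% of all tested probe sets did, and 2 had them all above, where 3.94% did. In females 1 of the 9 was wholly above, against 2.99%, and 0 were wholly below, against 3.29%. The same contrasts helped to choose the genes, so these shares are given as a description.

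**Figure D5:**
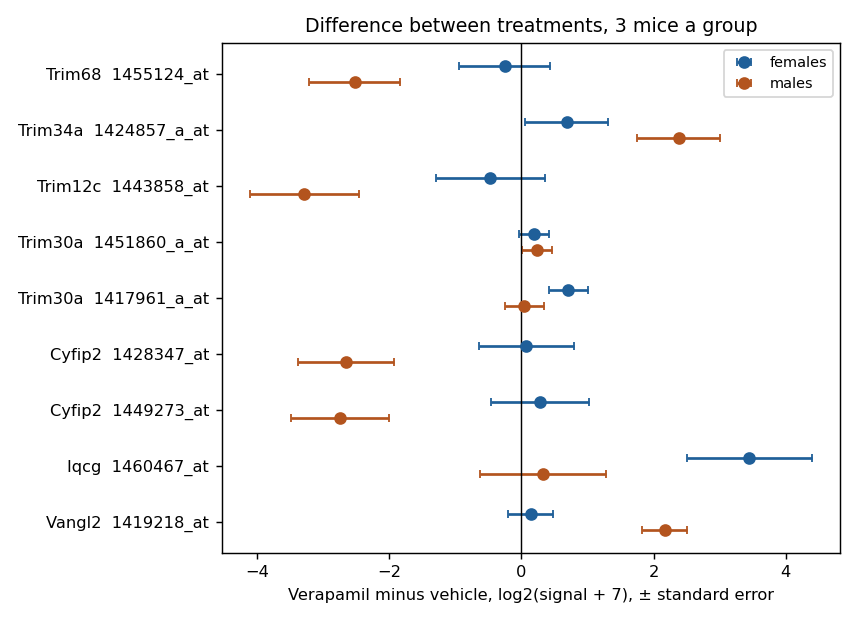
Verapamil minus vehicle difference in log2(signal + 7) (x axis) for the 9 tested probe sets of the 7 genes (y axis), with the standard error from limma, in females (blue) and males (orange), 3 mice a group. Male differences of Trim68, Trim12c and Cyfip2 are between -3.29 and -2.52, those of Trim34a and Vangl2 are 2.38 and 2.17, and in females only Iqcg lies beyond 1.

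A single mouse decided whether some of these differences passed. Without male verapamil 2, the one verapamil male with high Trim68 and Trim12c, limma called 2 probe sets in males, and both were members: Trim68 at -3.62 (SE 0.39, adjusted p 0.0162) and Trim12c at -4.50 (SE 0.57, adjusted p 0.0389). Over the 18 alternatives of each probe set, limma's adjusted p in males ran from these values to 1.00. Without female vehicle 1, the one vehicle female with high Iqcg, the male minus female difference of Iqcg was called at 2.73 (SE 0.41, adjusted p 0.0309), and its female difference between treatments had an adjusted p of 0.0542. Without male verapamil 2 the male minus female difference was called for Trim68 (-2.26, SE 0.26, adjusted p 0.00396) and Trim12c (-2.85, SE 0.38, adjusted p 0.0129). Over the alternatives of these sex differences the highest adjusted p was 1.00.

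Pairs of genes ranged from the same split to nearly the opposite one. Trim68 and Trim12c put 12 of 12 mice on the same side, Trim68 and Iqcg 8, Trim68 and Cyfip2 7, and Trim68 and the brighter Trim34a probe set 3. Cyfip2 and Vangl2 put 10 of 12 mice on opposite sides; the 3 vehicle males were high for the first and low for the second. Male verapamil 1 and 3 were low for Trim68 and Trim12c and high for the brighter Trim34a probe set and for Iqcg. Female vehicle 3 was high for Cyfip2 and low for Iqcg, and female vehicle 2 was low for both.

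Near the members on the chromosome, classes were found around the Trim genes and not around the other 3 members. Of the 20 nearest genes with a probe set (10 on each side), 0 had 2 classes around Cyfip2 (9 tested), 0 around Iqcg (16 tested) and 0 around Vangl2 (12 tested). Around Trim68 there was 1 of 20 (10 tested), around Trim34a and Trim12c 4 of 20 each (4 tested each), and around Trim30a 5 of 20 (5 tested). Among the tested neighbours alone the counts were 0, 1, 1 and 2. These windows overlap and count other members. The genes with classes in them were Trim34a and Trim12c, both tested, and the dim Trim5, Trim12a and Ubqln5. Trim21, the nearest gene with a probe set on one side of Trim68, was tested and had a widest gap of 0.43. Classes were common among dim probe sets: among the 22519 untested ones 2031 (9.02%) had 2 classes. The counts around the members are therefore not read as a result.

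The genes whose deviations from the group means went most closely with each member were taken as a description over 12 arrays, which share the group means and array effects. For Trim68 they were Rnf135 (r = 0.92), Zfp994 (0.88) and Angel2 (0.88). Trim34a went with Ndufb6 (0.93), Siah1a (0.92) and Rp9 (0.90), and Trim12c with Gnb2 (0.98), Gtf2i (0.95) and Fam53a (0.95). Trim30a went with Adcy4 (0.96), Daxx (0.95) and Nxn (0.95). Cyfip2 went with Nln (0.91), Tcaf1 (0.90) and Foxc2 (0.90), Iqcg with Ptcd2 (0.96), Cluap1 (0.94) and Khk (0.94), and Vangl2 with 2310068J16Rik (0.92), Nts (0.91) and Polr3e (0.91). None of these 21 genes had 2 classes of mice.

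Other genes of the members' families and pathways were taken from lists, 1 brightest probe set per gene. By that count 63 of all 11502 tested genes had 2 classes, so that 0 in a short list is near the background and is not read as a result. Of 14 tested genes of the TRIM family outside the members, 0 were called in either sex and 0 had 2 classes, with a median treatment difference of -0.11 log2 units in females and -0.07 in males, where the medians of all tested genes were -0.02 and 0.01. Of 23 tested genes of the interferon response, 0 were called and 0 had classes, with medians of 0.32 in females and -0.07 in males; Rsad2, an antiviral enzyme of this response, had a standard deviation within groups of 1.15 without a split into classes. Of 12 tested genes of the WAVE complex and its regulators 0 had classes (medians -0.03 and 0.03), and Abi3 had the largest spread, 1.11. Only 2 of 18 genes of the ciliary regulatory complex and radial spokes, Gas8 and Rsph3a, were bright enough to test. Of 15 tested planar polarity genes 0 were called and 0 had classes (medians -0.06 and -0.09), and Fzd3, a receptor of that pathway, had the largest spread, 0.63.

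Array quality and tissue markers were set beside these splits. The signal of Xist and of 3 Y-linked genes fitted the sex label of all 12 arrays. The actin 3' to 5' ratio, which rises as RNA is degraded, was highest in male vehicle 1 (2.24), female vehicle 1 (2.08) and female verapamil 1 (1.77) and was 1.35 to 1.63 in the other 9 arrays. In each of the 4 groups replicate 1 had the highest ratio, with 1.63 in male verapamil 1. Male vehicle 1 and female verapamil 1 were among the 5 high mice of Cyfip2 and female vehicle 1 was not. Female vehicle 1 was the only vehicle female with high Iqcg, which was also high in every mouse of the other groups. For the brighter Trim34a probe set, male vehicle 1 was the only high vehicle male, while female vehicle 1 and female verapamil 1 were low. The part of RNA quality in these splits was not tested. All 6 markers of ventricular muscle were tested and their mean deviation stayed within -0.30 to 0.19 log2 units. They separated the male groups, with 0.16, 0.03 and 0.15 in vehicle and -0.07, -0.30 and -0.24 in verapamil males. The 3 tested markers of atrial muscle (Myl7, Myl4 and Nppa) deviated by 3.19 in female verapamil 3 and by 1.47 both in male vehicle 1 and in female vehicle 3, and by at most -0.32 in the other 9 arrays. Female verapamil 3 and male vehicle 1 were both high for the brighter Trim34a probe set, Trim5 and Trim30d. The 3 verapamil males were high for these too, and their atrial markers deviated by -1.46, -0.55 and -0.34. Markers of macrophages, which express many TRIM genes, had deviations of 0.17, 0.50 and 0.20 in verapamil males, -0.09 in female verapamil 3, -0.17 in male vehicle 1 and -0.32 to 0.32 in the other 7 mice. The 4 mesothelial markers, all tested, separated the female groups, with -0.76, 0.10 and -1.09 in vehicle and 1.03, 0.56 and 0.47 in verapamil females. The macrophage markers did so too, with -0.32, -0.23 and -0.24 in vehicle and 0.02, 0.16 and -0.09 in verapamil females. The 2 tested markers of fat cells did so narrowly, with 0.45, 0.13 and 0.24 in vehicle and 0.46, 0.73 and 1.08 in verapamil females. S100b, the 1 tested marker of neurons and Schwann cells, was at most -0.39 in vehicle and at least -0.34 in verapamil females. The dimmer tested probe set of Trim30a separated the same groups. The 2 tested markers of fat cells were lowest in male vehicle 1 and 2, at -1.12 and -1.07, and were at -0.20 in male vehicle 3. These 3 mice were the low ones of Vangl2. The verapamil males, which were high for Vangl2, were at 0.15, -0.70 and -0.13. Of 8 T cell markers only Thy1 was bright enough to test, and of 4 B cell markers 0 were. In whole tissue, fewer cells of a type and less RNA per cell cannot be told apart, and the part of cell makeup in these splits was not tested.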

How the data were processed

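The authors deposited 1 table of signal intensity for 45101 probe sets on 12 arrays, on a linear scale; from the values, each array had been scaled to a trimmed mean of about 500 (499.8 to 499.84 without the lowest and highest 2%). For the signal algorithm and its background step, the sources used here name nothing. Groups come from the labels; the design text mentions arrays of females only, while the labels give both sexes. Array medians ran from 81.67 to 109.7. Precision is limited by the number of arrays.

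Values were taken as log2(intensity + 7) with no other normalization. After removal of 64 control probe sets, the 22518 with a mean above the median (6.51) were tested. Symbols are those of the array annotation (34958 probe sets with 1 symbol, 932 with several, 9211 with none). The treatment and sex comparisons used limma 3.58.1 (R 4.3.3) on 4 group means (8 residual degrees of freedom, intensity trend, two-sided, Benjamini-Hochberg adjusted p under 0.05). The rule for classes, the pooled standard deviation within groups, the likeness of residuals and the counts among neighbours were computed with Python 3.11.15, numpy 2.4.6 and pandas 2.3.3, promoters were aligned end to end with Biopython 1.88, and figures drawn with matplotlib 3.10.9. The test and the rule for classes were tested on simulated data. Besides the 7 members, the genes named are the 3 most alike each member, the Trim genes of this stretch of chromosome 7, the members of fixed lists with the largest spread, and the genes with the widest gaps.

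The 7 genes, the lists and the rule for classes were chosen with earlier results of these data known. The labels do not say whether the 3 samples of a group were processed separately after dissection, and p-values measure the spread between these samples. Replicate numbers were not taken to pair mice, and 1 female label carries no number. The correlation of deviations of same-numbered arrays was 0.318, 0.176 and 0.119 in females and 0.149, 0.0785 and 0.131 in males. Differently numbered arrays were not compared in this way. All of these correlations were positive, and whether same-numbered mice shared a processing step was not tested. Alternatives were pseudocounts of 1 and 25, quantile normalization, a filter at the 75th percentile, no filter, no intensity trend, replicate number as a block, other probe sets of a gene, gaps of 0.75 and 1.5, at least 3 mice on each side, and each array left out in turn.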

Additional observations from a re-analysis of the deposited data

How the results depend on the processing

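The spread within groups of the members stayed within 1.5 times in 102 of 105 alternatives; the other 3 left out male verapamil 2 (Trim68 and Trim12c) or female vehicle 1 (Iqcg). Treatment differences moved by less than 1 standard deviation in 208 of 210 and gaps in 108 of 112. The differences that moved were those of Trim68 in males without male verapamil 2 (-3.62) and Vangl2 in males on a pseudocount of 25 (1.66). Leaving out 1 mouse gave Trim12c gaps of 2.61 to 4.67. Other probe sets gave gaps of 0.35 for Trim12c and 0.42 and 0.80 for Vangl2. The same mice made up the classes of Trim34a, Cyfip2 and Vangl2 on each of 3 other scales and without any 1 of the 12 mice. For Trim68, Trim12c and Iqcg, which had 2 low mice, leaving out either of them left 1 low mouse and no class by the rule. The count of probe sets with 2 classes, 215, was 142 on a pseudocount of 25, 2246 without a filter, 42 with a filter at the 75th percentile, 496 and 58 with gaps of 0.75 and 1.5, and 104 with at least 3 mice on each side; Trim68, Trim12c and Iqcg drop out by construction of the last. The count of treatment calls in males was 0 to 2 without 1 mouse. The 17 sex calls became 2 with a filter at the 75th percentile, 10 without an intensity trend and 9 to 15 without 1 mouse; the cause was not tested. With replicate number as a block within sex, treatment comparisons still gave 0 calls in females, in males and averaged over them, and the sex comparison gave 24. In limma's test with that block 684, 864, 927 and 1047 probe sets had an unadjusted p under 0.05 in these 4 comparisons. Without the block they were 510, 612, 716 and 687. Dim probe sets, including 5 of the 14, had classes far more often than bright ones, so low signal limits what their gaps show.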

Other observations

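Outside the 7 genes, the widest gap with both classes inside a group belonged to a probe set of H2-D1, a class I histocompatibility gene, at 4.70 log2 units. Female vehicle 1, male vehicle 3 and male verapamil 1 were at or below 6.24 and the other 9 mice at or above 10.9, so that 3 groups held both classes. Ccdc122 followed with a gap of 3.27 and its low mice were female verapamil 3 and male verapamil 3. Cp, which encodes the copper carrier ceruloplasmin, had a gap of 3.09, with female verapamil 2 and male verapamil 2 low. For Ccdc122, Cp, Abhd1, Prrc1, Tmem14c and Lig3 the 2 low mice carried the same replicate number, while those of Ccnb1ip1 (gap 1.97) did not. The low mice of Prrc1 and Lig3 include female vehicle 1, whose label carries no number. The cause was not tested. Myl7, the light chain of atrial myosin, had a gap of 2.13. These genes were named for the width of their gap, which is a description of these 12 arrays.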
